A study of Mus musculus with 9 samples.

Results

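Genes annotated to protein phosphorylation were named by 78 of the 2347 RING1B peaks of Eed+/+ mouse embryonic stem cells (mESCs) and by 62 of the 1810 peaks of Eed-/- mESCs. A peak was a member when a gene ontology process deposited with it contained the words protein and phosphorylation but not dephosphorylation, and when its named gene was not an Eph receptor (Epha or Ephb), which left out 11 Eed+/+ and 5 Eed-/- peaks. The 78 Eed+/+ peaks named 69 genes and the 62 Eed-/- peaks named 58 genes. They were set beside all other peaks with a deposited process annotation, 1825 in Eed+/+ and 1345 in Eed-/-. These others include the Eph receptor peaks left out of the members. Both genotypes are embryonic stem cells of strain C57BL/6 by the labels, wild type in one case and without a functional Eed gene in the other. DNA recovered with a RING1B antibody was sequenced, and peaks were called once per genotype. The labels give 1 RING1B sample for Eed+/+ and 3 for Eed-/-, numbered as replicates, which the study's methods describe as sequencing lanes. With 1 call per genotype no value carries a replicate error, and no test between genotypes was made.

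Protein kinases transfer phosphate from ATP to tyrosine, serine or threonine residues of their substrates. Receptor tyrosine kinases sit in the plasma membrane and are switched on by secreted growth factors, whereas most serine/threonine kinases act inside the cell, some of them downstream of such receptors. RING1B is the ubiquitin ligase of Polycomb repressive complex 1 (PRC1), which modifies histone H2A at silent developmental genes, whereas EED belongs to the core of PRC2, the complex that deposits H3K27me3. In mESCs, Polycomb proteins are known to lie mostly at CpG islands, stretches of DNA dense in CG dinucleotides, many of them at the promoters of genes of later development.

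The deposited annotation was broader than kinases. Of the member peaks, 54 in Eed+/+ (47 genes) and 42 in Eed-/- (39 genes) named a gene of 9 groups of the kinase tree listed by symbol, and a kinase activity was among the deposited function terms of 61 and 50 peaks. The remainder named secreted ligands and coreceptors such as Bmp2 and Tgfbr3, receptor guanylyl cyclases with a kinase-like domain such as Npr1, intracellular regulators such as Socs3, and kinases or kinase-like proteins outside those groups. The members are therefore called protein phosphorylation genes here. The term "protein amino acid phosphorylation" itself was on 67 Eed+/+ and 54 Eed-/- member peaks.

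Sequences at 5 peak summits (200 bp each, mm9, + strand, read from the NCBIM37 genome) show windows dense in CG dinucleotides and 1 of the 3 member windows that held none. Capitals mark CG dinucleotides, searched as the letters CG, which read the same on both strands. The first pair is the site with the highest Eed+/+ fold enrichment among the members, at which both genotypes had a peak, followed by an overlapped receptor tyrosine kinase site, an Eed+/+ peak that no Eed-/- peak overlapped, and an Eed-/- peak that no Eed+/+ peak overlapped.
Lats2 Eed+/+ summit, chr14:58364381-58364580, intron: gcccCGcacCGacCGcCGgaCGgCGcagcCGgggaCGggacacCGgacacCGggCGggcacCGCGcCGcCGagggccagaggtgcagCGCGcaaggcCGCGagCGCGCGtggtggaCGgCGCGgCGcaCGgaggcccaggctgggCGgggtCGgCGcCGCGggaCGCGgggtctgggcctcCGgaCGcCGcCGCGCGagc
Lats2 Eed-/- summit, chr14:58364406-58364605, intron: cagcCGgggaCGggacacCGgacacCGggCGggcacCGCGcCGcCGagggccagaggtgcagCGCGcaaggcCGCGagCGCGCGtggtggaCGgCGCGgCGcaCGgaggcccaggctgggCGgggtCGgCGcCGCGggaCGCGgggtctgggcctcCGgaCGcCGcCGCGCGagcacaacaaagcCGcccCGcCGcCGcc
Erbb4 Eed+/+ summit, chr1:69154085-69154284, intron: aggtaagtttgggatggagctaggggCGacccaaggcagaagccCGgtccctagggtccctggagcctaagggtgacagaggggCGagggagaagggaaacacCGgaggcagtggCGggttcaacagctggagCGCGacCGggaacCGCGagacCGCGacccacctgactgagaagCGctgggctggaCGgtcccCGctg
Sgk3 Eed+/+ summit, chr1:9788508-9788707, intron: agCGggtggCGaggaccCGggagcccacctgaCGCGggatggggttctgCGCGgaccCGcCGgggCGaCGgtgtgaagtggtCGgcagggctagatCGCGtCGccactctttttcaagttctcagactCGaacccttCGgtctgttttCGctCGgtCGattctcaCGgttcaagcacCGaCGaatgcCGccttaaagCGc
Insr Eed-/- summit, chr8:3290649-3290848, intergenic: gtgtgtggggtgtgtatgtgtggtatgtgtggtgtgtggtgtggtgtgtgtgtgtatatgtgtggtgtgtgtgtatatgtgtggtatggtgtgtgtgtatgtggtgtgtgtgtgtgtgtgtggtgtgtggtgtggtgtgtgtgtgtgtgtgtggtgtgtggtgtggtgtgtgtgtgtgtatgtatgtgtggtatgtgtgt
The windows held 40 and 38 CG at Lats2, 15 at Erbb4, 25 at Sgk3 and 0 at Insr, where the sequence consists almost wholly of T and G. Over all members the median was 18 CG per window in Eed+/+ and 19 in Eed-/-, beside 17 and 19 for the other annotated peaks. A CG was present in 77 of 78 Eed+/+ and 60 of 62 Eed-/- member windows, the others without one being at the Eed+/+ peak upstream of Fgfr3 and the Eed-/- peak assigned to Map4k1. A CG was present in 99.7% of all Eed+/+ and 98.8% of all Eed-/- peak windows.

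Member genes were shared between the genotypes in part. Of 87 gene names, 40 were in both lists, 29 in Eed+/+ alone and 18 in Eed-/- alone, so that 58.0% of the Eed+/+ names and 69.0% of the Eed-/- names were shared. By position, 43 of 78 Eed+/+ member peaks (55.1%, exact 95% interval 43.4 to 66.4) shared at least 1 bp with an Eed-/- peak, against 52.3% of all annotated Eed+/+ peaks and 52.2% (49.9 to 54.5) of the other annotated ones. In the other direction, 43 of 62 Eed-/- member peaks (69.4%, 56.3 to 80.4) overlapped an Eed+/+ peak, against 76.0% of all annotated Eed-/- peaks and 76.3% (73.9 to 78.5) of the other annotated ones. The intervals, which cover counting error only, overlapped in both directions, and the members' shares were near the background. In each of the 43 pairs, both peaks named the same gene. The paper considers its own overlap of the lists an underestimate, because its thresholds missed some Eed-/- sites. A gene given below as in Eed+/+ alone therefore lacked a called Eed-/- peak, and is not shown to lack RING1B.

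Overlap went with fold enrichment, the ratio of tags in a peak to the background that the peak caller estimated. Of the 26 Eed+/+ member peaks with the highest fold enrichment (18.05 to 47.5), 18 were overlapped in Eed-/- cells (69.2%). The counts were 14 of 26 (53.8%) among the 26 next in rank and 11 of 26 (42.3%) among those lowest in rank (3.47 to 10.2). Other annotated peaks in the same ranges of fold enrichment were overlapped in 66.6%, 42.3% and 33.1% of cases. Among the members, the overlapped Eed+/+ peaks had a median fold enrichment of 16.9 and those without overlap 11.9.

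Where both genotypes had a peak, RING1B levels were lower in Eed-/- mESCs. The level was computed as tags per kb of peak for every 1000000 mapped tags, and no input was subtracted. Each level was taken over the peak as called in that genotype, not over a common interval, so levels in a pair refer to regions that can differ in width. It was lower in Eed-/- in 43 of 43 member pairs, as in 100% of all annotated pairs. The median member level in pairs was 4.62 in Eed+/+ and 1.34 in Eed-/-, beside 5.97 and 1.32 for the 953 other annotated pairs. For members the Eed-/- level divided by the Eed+/+ level had a median of 0.277 (quartiles 0.214 and 0.371), and for the others 0.218 (0.174 and 0.292). Between members and others, then, the Eed-/- medians were close and the Eed+/+ medians were further apart. More than 100 tags were required of a peak in both lists, and the Eed-/- library had 4.18 times the mapped tags, so weak sites could enter the Eed-/- list at lower levels. How much of the ratio comes from that requirement was not tested.

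**Figure D1:**
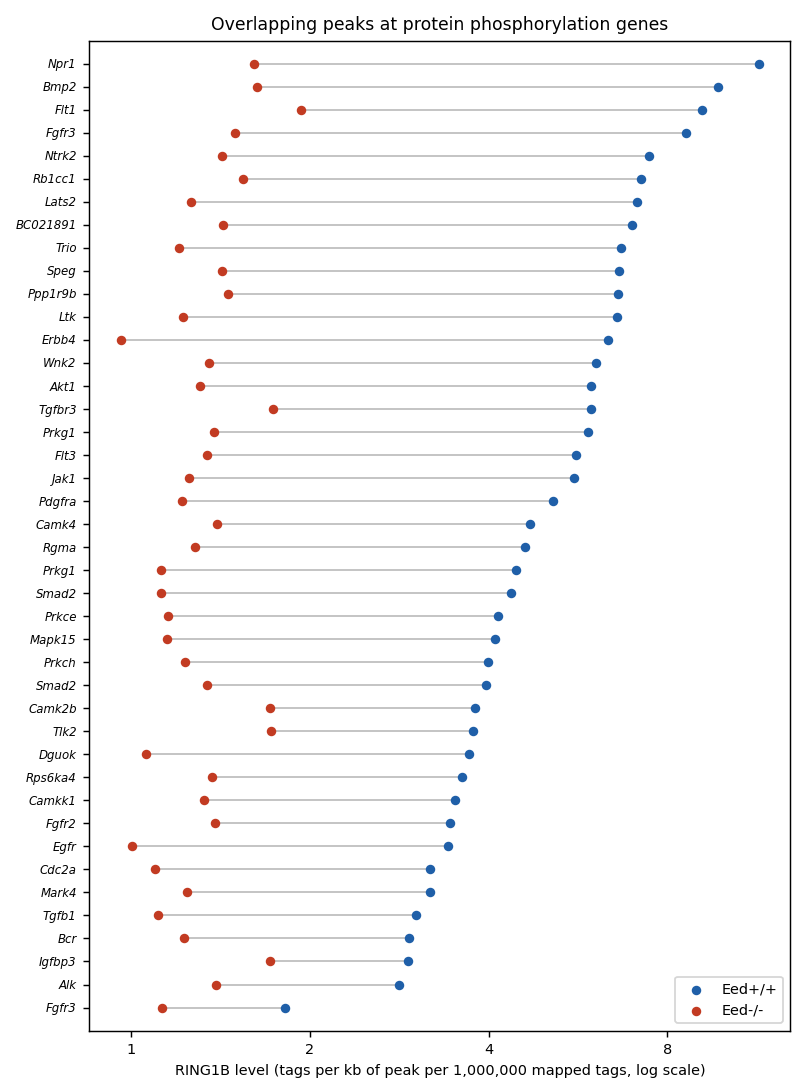
RING1B level (tags per kb of peak per 1000000 mapped tags, log scale) of 42 of the 43 pairs of overlapping member peaks in Eed+/+ (blue) and Eed-/- (red), 1 line per pair, ordered by the Eed+/+ level. Every red point lies left of its blue point, and the Eed+/+ levels spread from 1.81 to 11.4, whereas the Eed-/- levels stay between 0.962 and 1.93.

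The ratio varied among pairs from 0.141 to 0.621. It was lowest at Npr1, the receptor of atrial natriuretic peptide, with a level of 11.4 in Eed+/+ and 1.61 in Eed-/-. It was highest at a weak site upstream of Fgfr3, a fibroblast growth factor receptor, with levels of 1.81 and 1.13. That site, 26173 bp from the first exon by its Eed+/+ peak, was also the one pair whose fold enrichment was higher in Eed-/- (5.68) than in Eed+/+ (4.46). The peak at the Fgfr3 gene itself had levels of 8.59 and 1.49, so 2 sites assigned to one gene stood near opposite ends of the range.

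Receptor tyrosine kinases were the largest group, with 18 Eed+/+ peaks (16 genes), 12 of them overlapped, and 15 Eed-/- peaks (13 genes), 12 of them overlapped. Their median ratio in pairs was 0.238. Over all annotated peaks, 52.3% of Eed+/+ and 76.0% of Eed-/- peaks were overlapped. Counts per group, here and below, are small, and no group was tested against these shares. Erbb4, a neuregulin receptor, occupies chromosome 1 from 68078760 to 69154633 on the - strand (mm9). Its Eed+/+ peak, from 69151843 to 69154991 over the start of the gene, had 337 tags, a level of 6.36 and a fold enrichment of 39.3. The Eed-/- peak inside it held 147 tags, with a fold enrichment of 6.32, and its level of 0.962 was the lowest among the Eed-/- members. The Eed-/- list had another peak assigned to Erbb4, 269642 bp upstream of the first exon, with 232 tags and a level of 1.88. No Eed+/+ peak overlapped that distant site, and the nearest annotated start site lay 245524 bp away.

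Pdgfra, the platelet-derived growth factor receptor alpha, had the widest member peak in Eed+/+, 9175 bp from 75543995 to 75553169 on chromosome 5, with 791 tags. In Eed-/- the peak covered 2101 bp within it, with 180 tags. The levels, each over its own peak, were 5.13 and 1.22. Both receptors of vascular endothelial growth factor on that chromosome had Eed+/+ peaks. Flt1 had levels of 9.16 and 1.93 in the genotypes, whereas Kdr had an Eed+/+ peak alone, with a level of 6.64 and a fold enrichment of 19.7. Flt3, a cytokine receptor of blood progenitors, had levels of 5.62 and 1.34.

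Ntrk2 and Ntrk3, which encode neurotrophin receptors, differed in whether a peak was called in Eed-/- cells. Ntrk2, the receptor of brain-derived neurotrophic factor, had peaks of almost the same width, 4007 bp in Eed+/+ and 3940 bp in Eed-/-, with 502 and 394 tags and levels of 7.45 and 1.42. Ntrk3, the receptor of neurotrophin-3, had an Eed+/+ peak with a level of 7.30 (fold enrichment 31.6) but no overlapping Eed-/- peak. The Eed+/+ level of Ntrk3 was thus close to that of Ntrk2.

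Among the other receptors without overlap in Eed-/- were Ret, the receptor of glial cell line-derived neurotrophic factor family ligands (fold enrichment 14.8, level 3.94), and Aatk, a kinase of the nervous system, with 2 Eed+/+ peaks at fold enrichments of 5.63 and 3.47. Ddr1, a collagen receptor, had an Eed+/+ peak alone at 4.84. Ltk, Egfr, Fgfr2 and Alk had overlapped peaks, with ratios from 0.186 at Ltk to 0.492 at Alk. In the Eed-/- list alone stood the distant Erbb4 site, Ror2, a receptor of Wnt5a (fold enrichment 5.82, 136 tags), and Insr, the insulin receptor (6.91, 137 tags). The Insr peak, whose summit is shown above, lay 10779 bp upstream of the first exon in intergenic DNA.

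AGC kinases, the group of protein kinases A, G and C, had 11 Eed+/+ peaks (8 genes), 7 of them overlapped, and all 7 Eed-/- peaks of the group overlapped an Eed+/+ peak. The overlapped shares over all annotated peaks were 52.3% in Eed+/+ and 76.0% in Eed-/-. Lats2, a kinase of the Hippo pathway that phosphorylates the coactivator YAP, occupies chromosome 14 from 58260914 to 58377225 on the - strand. Its peak from 58363592 to 58365809 had the highest fold enrichment of the Eed+/+ members, 47.5, with 265 tags, and the Eed-/- peak had 5.21 with 149 tags. The levels were 7.11 and 1.26, and the summits lay 25 bp apart. A further Eed+/+ peak in the coding sequence of Lats2, 34539 bp from the first exon as annotated by the authors, had no overlap and a fold enrichment of 8.4. Another annotated start of Lats2 lay within 1 kb of that peak.

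Sgk3, a kinase activated through phosphoinositide signalling, had the highest fold enrichment of the Eed+/+ member peaks without overlap, 32.9, in a peak of 1304 bp with 144 tags and a level of 6.57. Prkg2 also lacked an overlap, and its level of 7.95 (fold enrichment 19.2) was the highest among the Eed+/+ member peaks without overlap. Prkg1, like Prkg2 a cGMP-dependent kinase, had 2 Eed+/+ peaks, each near an annotated start of the gene and each overlapped, with levels of 4.45 and 5.88 in Eed+/+ and of 1.12 and 1.38 in Eed-/-. The protein kinase C genes Prkce and Prkch had levels of 4.14 and 3.99 in Eed+/+ and of 1.15 and 1.23 in Eed-/-. Rps6ka4, a kinase activated by MAP kinases, had an overlapped peak at its start (fold enrichment 5.89 and 3.86) and an Eed+/+ peak within the gene without overlap (8.39).

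Akt1, a central kinase of insulin and growth factor signalling, was named by one peak in each list, but both lay over the neighbouring gene Zbtb42, which encodes a zinc finger protein. The Eed+/+ peak was 4599 bp wide with 461 tags, and the Eed-/- peak was 8570 bp wide with 787 tags, the widest of the Eed-/- members. The levels were 5.96 and 1.31. The Eed-/- peak was wider than its Eed+/+ partner in 11 of the 43 member pairs, beside 220 of the 953 other annotated pairs. It lay wholly inside the partner in 20 member pairs (46.5%, beside 60.0% of other annotated pairs).

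CAMK kinases, many of them regulated by calcium and calmodulin, had 9 Eed+/+ peaks, 5 overlapped, and 8 Eed-/- peaks, 5 overlapped. Over all annotated peaks, 52.3% and 76.0% were overlapped. Speg, a kinase of striated muscle, had fold enrichments of 30.1 and 4.77, and Trio, which joins exchange factor domains for small GTPases to a kinase domain, had 26.1 and 4.77. Camk2b, a subunit of calmodulin-dependent kinase II of neurons, had levels of 3.80 in Eed+/+ and 1.72 in Eed-/-, a ratio of 0.452, and Camk4, a kinase of neurons and T cells, had 4.69 and 1.40, a ratio of 0.298. In Eed+/+ alone were Camk1d, Brsk2, a kinase of neuronal polarity, Hunk and Camk2d, at fold enrichments from 12.4 down to 7.58. In Eed-/- alone were Dapk3, a kinase of cell death pathways (4.92), Nuak1, an AMPK-related kinase (4.24), and Prkaa2, a catalytic subunit of AMPK (3.77). The peak named for Dapk3 lay 8960 bp from the gene's first exon, and the start site within 1 kb of it was that of 2310050B05Rik.

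CMGC kinases, the group of cyclin-dependent and MAP kinases, had 8 Eed+/+ peaks and 2 of them overlapped. These 8 peaks are too few to set a share beside the 52.3% over all annotated Eed+/+ peaks. Of the 8, only 1 was centred within 1 kb of the named gene's first exon. Mapk15, an atypical MAP kinase, was named by 3 Eed+/+ peaks, of which the one on the gene itself (6150 bp, 424 tags, fold enrichment 16.9) overlapped an Eed-/- peak of 5592 bp and 452 tags. The others lay over neighbouring transcripts, 2410075B13Rik and Fam83h. Cdk6, a cyclin-dependent kinase of the G1 phase, had an Eed+/+ peak alone with a fold enrichment of 11.2, as did Pftk1 (now Cdk14, 9.12), Cdk3 (7.99) and Mapk11, a p38 MAP kinase (3.67). The Cdk3 peak overlapped what the annotation used here calls Cdk3-ps, and also Evpl. Cdc2a (now Cdk1), the mitotic kinase, was named by peaks of both genotypes that lay 46551 bp from its first exon by the Eed+/+ peak, in intergenic DNA. Hipk3, a homeodomain-interacting kinase, was in Eed-/- alone (5.38).

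STE kinases, relatives of the upstream kinases of MAP kinase cascades, had 3 Eed+/+ peaks, none overlapped, and 1 Eed-/- peak, not overlapped. Stk39, a regulator of ion cotransporters, had a level of 5.21 and a fold enrichment of 26.3. Pak6, an effector kinase of small GTPases, had 5.19 and 20.6, and Map3k5, a kinase of the stress response, had 6.04 and 14.8. These 3 peaks are too few to set a share beside the background. The Eed-/- peak assigned to Map4k1, a kinase of blood cells, lay 51538 bp from its first exon, in an intron of Ryr1.

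**Figure D2:**
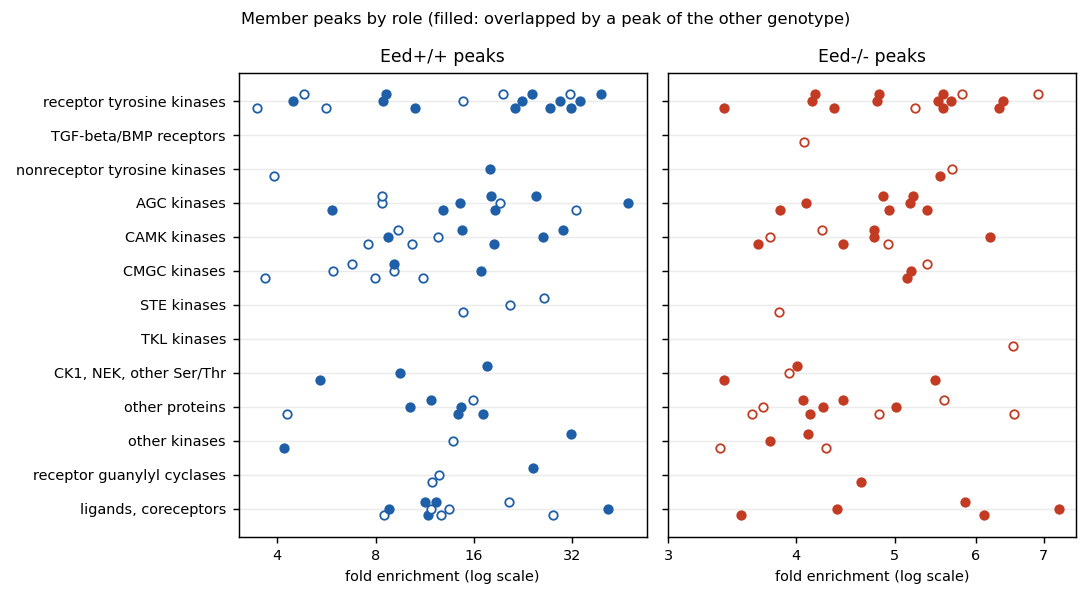
Fold enrichment (log scale) of the 78 Eed+/+ (left) and 62 Eed-/- (right) member peaks by the role of the named gene, 1 point per peak. Filled points mark overlap with the other genotype and open points mark none, and the panels have different axes. Receptor tyrosine kinases hold 12 filled points in each panel, and the 3 STE kinase points of Eed+/+ are open.

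The other kinase groups had few peaks. Jak1, which signals from cytokine receptors, was named by peaks of both genotypes 27675 bp from its first exon by the Eed+/+ peak, with levels of 5.56 and 1.25. Srms, a Src-related kinase, had an Eed+/+ peak alone (fold enrichment 3.92), whereas Fyn, a Src family kinase, had an Eed-/- peak alone (5.69). Wnk2, a regulator of ion transport, Tlk2, a chromatin assembly kinase, and Camkk1, which activates other calmodulin-dependent kinases, were overlapped in both lists, with ratios from 0.223 to 0.456. Eef2k, which phosphorylates elongation factor 2, Acvr2b, a receptor of activins, and Ripk4, a kinase of epidermal differentiation, were in Eed-/- alone, at fold enrichments of 3.94, 4.07 and 6.53.

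Secreted ligands and the proteins that bind them had 11 Eed+/+ peaks, 5 of them overlapped, and 5 Eed-/- peaks, all overlapped. Beside these small counts, 52.3% of all annotated Eed+/+ peaks and 76.0% of all annotated Eed-/- peaks were overlapped. Bmp2, a bone morphogenetic protein of early development, had the next highest fold enrichment of the Eed+/+ members after Lats2, 41.4, with 568 tags and a level of 9.75. In Eed-/- its peak had the highest fold enrichment of the members, 7.25, with 207 tags and a level of 1.63, and the summits lay 5 bp apart. Bmp4 had an Eed+/+ peak alone, at a fold enrichment of 20.5, as did Wnt5a, a Wnt ligand of tissue outgrowth, at 28.05 with 609 tags and a level of 7.63. The remaining Eed+/+ ligand and precursor peaks without overlap were at App, Fgf2, Tgfb2 and a second site of Rgma. Tgfbr3, a coreceptor of TGF-beta, Igfbp3, which binds insulin-like growth factors, Rgma, a coreceptor of bone morphogenetic proteins, and Tgfb1 were overlapped. Igfbp3 had the second highest ratio of the members, 0.585, from levels of 2.92 and 1.71.

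Intracellular regulators and other proteins had 7 Eed+/+ peaks, 5 overlapped (52.3% over all annotated peaks), and 10 Eed-/- peaks, 5 overlapped (76.0% over all). Those in Eed-/- alone were Ptpre, a receptor tyrosine phosphatase (fold enrichment 6.54), Socs3 and Socs1, inhibitors of cytokine signalling (5.59 and 4.83), Ccnd1, which encodes cyclin D1 (3.71), and Prkar2a, a regulatory subunit of protein kinase A (3.62). In both genotypes were Ppp1r9b, a scaffold of protein phosphatase 1, and the sites named for Dguok, a mitochondrial nucleoside kinase, Rb1cc1 and Smad2. The site named for Dguok lay in intergenic DNA, 50857 bp from its first exon by the Eed+/+ peak. In Eed+/+ alone were Rapgef3, an exchange factor activated by cAMP, and the site named for Ibtk. Of kinases and kinase-like proteins outside the listed groups, Bcr was also overlapped, 6330514A18Rik (now Plk5) was in Eed+/+ alone, and D8Ertd82e (now Prag1) was in Eed-/- alone. Overlapped too, BC021891 had fold enrichments of 31.9 and 4.11 in the genotypes. Of the receptor guanylyl cyclases, Npr1 was overlapped, and Npr2 and Gucy2e were in Eed+/+ alone, at fold enrichments of 11.9 and 12.5.

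The 19 Eed-/- member peaks without overlap had about the same median level as the 43 overlapped ones, 1.27 against 1.34, and a median fold enrichment of 4.83 against 4.80. Their tag counts were low beside the depth of the library. The highest tag count among them was 232, which equals 55.5 tags at the Eed+/+ depth, so 0 of 19 would have passed the requirement of more than 100 tags there. Over all annotated Eed-/- peaks without overlap, 15 of 338 would have passed. An Eed-/- peak needs over 418 tags to do so, and among the 62 members this was reached at the sites named for Akt1 and Mapk15, both overlapped. Whether the 19 sites carry RING1B in Eed+/+ cells below the calling threshold cannot be told from the lists. At Socs3, which is among them, the paper reports RING1B occupancy in Eed+/+ cells that was very low. The 35 Eed+/+ member peaks without overlap had a median level of 3.94, and 4 of their genes, Lats2, Mapk15, Rgma and Rps6ka4, also had an overlapped peak. Whether these 35 sites carry RING1B in Eed-/- cells below the calling threshold cannot be told from the lists either. The FDR of the Eed-/- members had a median of 1.515% and reached 1.99%, close to the authors' limit of 2%.

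Member peaks lay near transcription start sites. A GENCODE start site of any gene lay within 1 kb of 67 of 78 Eed+/+ peaks (85.9%, 76.2 to 92.7) and of 50 of 62 Eed-/- peaks (80.6%, 68.6 to 89.6), beside 77.5% and 81.7% of the other annotated peaks. The centre lay within 1 kb of the named gene's first exon for 62.8% of Eed+/+ members (51.1 to 73.5) and 49.6% of the others (47.3 to 51.9), and for 67.7% (54.7 to 79.1) and 57.8% (55.2 to 60.5) in Eed-/-. The intervals of members and others overlapped in each of these comparisons. By GENCODE feature, the summit lay in an exon for 39 Eed+/+ and 28 Eed-/- member peaks, in an intron for 29 and 24, and between genes for 10 in each list.

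**Figure D3:**
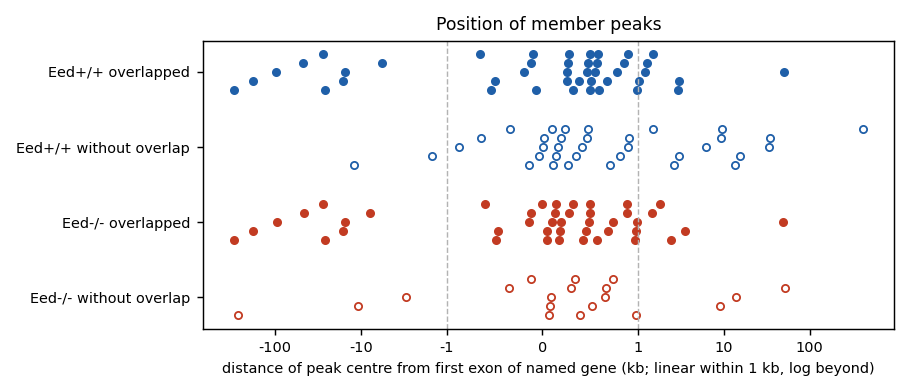
Distance in kb of each member peak's centre from the first exon of the gene it names (negative is upstream, linear within 1 kb and logarithmic beyond), for peaks with and without overlap in Eed+/+ (blue) and Eed-/- (red). Dashed lines mark 1 kb on either side, which enclose 49 of 78 Eed+/+ and 42 of 62 Eed-/- points.

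The named gene was not always the gene at the peak. The centre lay over 10 kb from the named gene's first exon for 15 Eed+/+ member peaks (19.2%, beside 19.6% of the others) and 13 Eed-/- ones (21.0%, beside 17.9%). This distance alone does not show that another gene is at the peak. The distant Eed+/+ peaks of Pak6, Lats2, Rgma and Aatk had another annotated start of the named gene within 1 kb. For 6 Eed+/+ and 5 Eed-/- member peaks, the start site within 1 kb belonged to another gene and none to the named one. Besides the sites named for Akt1, Mapk15, Tlk2 and Dapk3 these included Rb1cc1, an autophagy regulator, whose peaks lay over Npbwr1, a neuropeptide receptor gene. They were 297924 bp from the first exon of Rb1cc1 by the Eed+/+ peak. A peak named for Ibtk, an inhibitor of Bruton's tyrosine kinase, lay over Fam46a, and those named for Smad2, a mediator of TGF-beta signalling, lay over Zbtb7c. Values at these sites are therefore those of the sites and need not concern the kinase or regulator named.

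In size and height the member peaks were close to the other annotated peaks. Median width was 2482.5 bp in Eed+/+ (others 2706) and 1992 bp in Eed-/- (others 2190). Unscaled, the median was 71.9 tags per kb in Eed+/+ (others 81.9) and 93.9 in Eed-/- (others 92.9), and scaled to mapped tags it was 4.28 (others 4.87) and 1.33 (others 1.32). Median fold enrichment was 13.1 in Eed+/+ (95% interval of the median 11.3 to 16.9), beside 17.1 for the others (16.2 to 17.6), and 4.81 in Eed-/-, beside 4.94. The members' Eed+/+ medians of width, level and fold enrichment were thus below those of the others, and the intervals of the medians overlapped for each. An FDR of 1% or less was given to 78 of 78 Eed+/+ member peaks, beside 99.9% of other annotated Eed+/+ peaks. In Eed-/- it was given to 11 of 62 member peaks (17.7%), beside 26.2% of other annotated peaks.

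The DNA under the member peaks was rich in G and C. Median GC content was 60.0% in Eed+/+ (58.8 to 60.6), beside 57.9% for the others (57.6 to 58.04), and 60.9% in Eed-/-, beside 60.7%. The intervals of members and others did not overlap in Eed+/+, where the medians were 60.0% and 57.9%. Density of CG dinucleotides had a median of 52.9 per kb in Eed+/+ (others 49.1) and 61.2 in Eed-/- (others 61.6). At the summit, overlapped Eed+/+ member peaks had a median of 20 CG per 200 bp and those without overlap 15, and the same medians, 20 and 15, held for the other annotated peaks.

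Among the 140 member peaks of the lists, 2 had under 20 CG per kb, and both were Eed-/- peaks without overlap. The peak assigned to Insr had 3.92 CG per kb, and that assigned to Map4k1 had 1.16, over 865 bp with 130 tags. The Map4k1 peak, from 29818978 to 29819842 on chromosome 7, also had the highest level of the Eed-/- members, 2.14. Neither summit window held a CG, and the window at Map4k1 consisted almost wholly of repeats of A and C. How far such repeats affect tag counts was not tested. The next lowest density among Eed-/- members was 31.5, and the lowest in Eed+/+ was 29.5. Such sparse peaks made up 3.23% of Eed-/- members (0.393 to 11.2) and 3.42% of the other annotated Eed-/- peaks, so the members' share was near that of the rest.

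**Figure D4:**
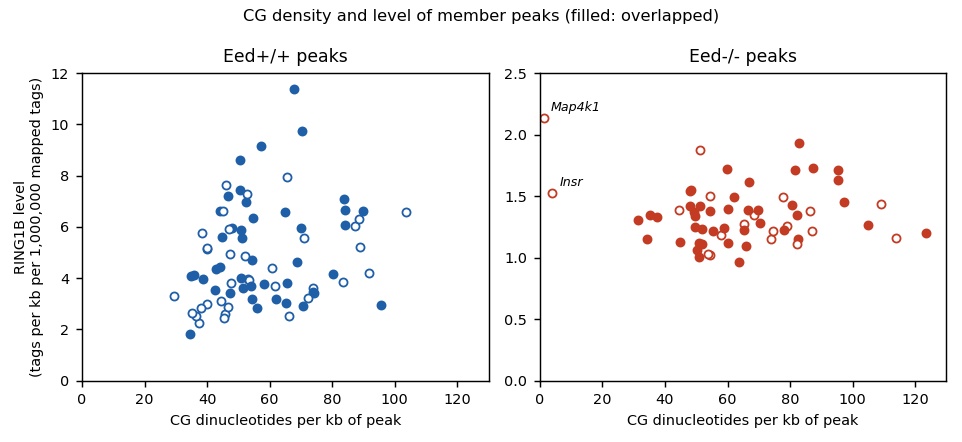
CG dinucleotides per kb against RING1B level (tags per kb per 1000000 mapped tags) for member peaks of Eed+/+ (left) and Eed-/- (right), with different level axes. Filled points are overlapped by a peak of the other genotype. The peaks assigned to Map4k1 and Insr stand apart at 1.16 and 3.92 CG per kb.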

How the data were processed

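RING1B ChIP-seq was analysed from 2 deposited peak lists, 1 per genotype. Per the paper's supplement, 16814546 tags were mapped for Eed+/+ and 70343706 for Eed-/-. The authors aligned tags to mm9 with bowtie and called peaks with MACS (an FDR below 2% and more than 100 tags). For these tools, the versions and the control library were not given in the sources used here. Per the deposited lists, each peak has a raw tag count, a fold enrichment ratio, an FDR in percent, a score derived from the peak's p-value, and the nearest gene with its gene ontology terms, assigned by the authors. Their columns that flag overlap between genotypes were not used. Input and CBX7 samples were not analysed here.

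Peaks were overlapped (1 bp), and a pair joins an Eed+/+ peak to the Eed-/- peak of longest overlap. Sequence and start sites came from NCBIM37 and GENCODE M1 (build mm9). Shares carry exact Clopper-Pearson 95% intervals and medians intervals from order statistics, both over the peaks of a list and for counting error only. Overlap code was checked on simulated lists. The members and lists were chosen with earlier results of these data known. The text names, per overlap class, the 8 genes of highest fold enrichment and up to 4 per kinase group. Results at some members are not reported here, and 1 pair is not drawn. Members beyond this rule, and the roles of genes outside the kinase groups, were chosen after their values or names were seen. Alternatives were a 50% overlap of both peaks, an FDR of 1% or less, the term for phosphorylation itself, 1 peak a gene, kinase group members only, fold enrichment in place of level and a 5 kb window, each for the results it bears on. Added after seeing the data were a limit to peaks centred within 1 kb of the named gene's first exon and a limit to Eed-/- peaks over 100 tags at the Eed+/+ depth. Python 3.11.15, numpy 2.4.6, scipy 1.17.1 and matplotlib 3.10.9 were used.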

Additional observations from a re-analysis of the deposited data

How the results depend on the processing

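The overlap shares, the level ratio, and the median levels and widths and promoter shares of the members were recomputed under the alternatives that bear on each, and 41 recomputed values stayed within the interval of the value reported. The 5 others came from restrictions that leave few Eed-/- peaks. When both lists were limited to peaks of at most 1% FDR, which keeps 11 Eed-/- members, the overlapped share was 12.8% of Eed+/+ and 90.9% of Eed-/- members, the median ratio 0.218 over 10 pairs, and the median Eed-/- level 1.49. With Eed-/- peaks limited to those over 100 tags at the Eed+/+ depth, a choice made after seeing the data, 100% of the remaining 2 Eed-/- members were overlapped. A limit to peaks centred within 1 kb of the named gene's first exon, also added then, gave overlapped shares of 55.1% and 69.05%. No paired analysis was possible because each list holds 1 call per genotype, and for the same reason no replicate could be left out. Depth differs 4.18-fold between the libraries, which limits what a peak missing from the Eed+/+ list can show. A peak missing from the Eed-/- list is limited as well, since the paper considers its overlap an underestimate.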
